A study of Drosophila melanogaster with 25 samples.

Results

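The actin genes of Drosophila melanogaster were followed through nuclear RNA that came down with 2 proteins. The 6 genes are Act5C (FBgn0000042), Act42A (FBgn0000043), Act57B (FBgn0000044), Act79B (FBgn0000045), Act87E (FBgn0000046) and Act88F (FBgn0000047), out of 16037 gene identifiers, and all 6 were among the 9961 identifiers that passed the filter on low counts. The family was selected on the measured folds of Act5C and Act42A, which responded differently to the antisera in these same libraries. The values of those 2 genes in precipitates are therefore given as a description, with no test. The other 4 genes, and all 6 in the comparison of inputs, were tested.

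Actin assembles into the filaments that give cells their shape and move them, and it forms the thin filaments of muscle. In flies Act5C and Act42A encode the cytoplasmic actins, which are made in nearly all cells. Act57B and Act87E are the actins of larval and other body muscles, Act79B serves tubular muscles of the adult, and Act88F is the actin of indirect flight muscle. Actin is also found in the nucleus, where it is a subunit of chromatin-remodelling complexes. The proteins are nearly identical between genes.

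RNA immunoprecipitation followed by sequencing (RIP-seq) pulls a protein out of an extract with an antiserum and sequences the polyadenylated RNA that comes with it. Su(Hw) binds DNA through zinc fingers and belongs to the insulator complex named after the gypsy retrotransposon, and Shep binds RNA. BG3 cells come from the nervous system of larvae, and Kc167 (Kc) cells come from embryos and resemble blood cells. In BG3 cells there were 2 libraries each of antiserum Rb5 against Shep, antiserum Gp60 against Su(Hw) and input. In Kc cells there were 3 libraries of Shep Rb5, 2 of Shep Rb6, 2 of Shep Gp01, 3 of Su(Hw) Gp60 and 6 of input. Neither line carries a labelled treatment or mutation, both are single established lines, and input is nuclear RNA without precipitation. The reference for each precipitate is input, without a mock precipitation.

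Gene counts were between 6190633 and 59066733 over the 22 libraries, and those of BG3 were between 25625321 and 48754771. Reads placed in more than 1 position held 72.7% to 86.6% of all counts in BG3 libraries and 35.0% to 79.6% in Kc libraries. Such reads are listed on a line that names no gene, so actin levels rest on reads placed once, and reads of stretches shared between the actin genes are uncertain. Levels are CPM, the counts scaled to a common library size, after TMM scaling. TMM scaling sets each library against a reference library over the bulk of the genes. Folds are log2 estimates of edgeR with their standard errors (SE). The TMM factors of the BG3 Su(Hw) libraries were 0.410, the lowest of all, and 0.731. The libraries fall into 4 sequencing classes by machine and quality encoding, and class was a term of the fit. The labels call the libraries biological replicates, and p-values measure the spread between these libraries. Less RNA per cell and fewer cells that make it cannot be told apart in bulk samples.

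The cytoplasmic actins supplied most of the family's reads. Actin genes took 0.143% to 1.62% of the gene counts of a library, and Act5C and Act42A together held 98.4% to 99.99% of those actin counts. These shares are of reads, with no correction for gene length, and do not rank the genes by abundance.

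Act5C stood near input with Shep Rb6 in Kc cells and with Shep Rb5 in BG3 cells, somewhat above input with Rb5 in Kc cells, and lower than input with Shep Gp01 and with Su(Hw) in both lines. In BG3 cells Act5C had 6981 and 6165 CPM with Shep Rb5 and 3022 and 2121 CPM with Su(Hw), against 8875 and 5742 CPM in input. The Rb5 values lay within the range of the inputs, and both Su(Hw) values lay below it, as 25.8% of tested genes did. In Kc cells Act5C had 10432, 6035 and 9061 CPM with Shep Rb5 and 11339 and 4275 CPM with Shep Rb6. It had 2767 and 1541 CPM with Shep Gp01 and 1624, 2461 and 5350 CPM with Su(Hw), while the 6 Kc inputs had a lowest value of 3925, a median of 7028 and a highest value of 9935 CPM. Both Gp01 libraries lay below every Kc input, as 12.2% of tested genes did, and the Rb5, Rb6 and Su(Hw) libraries overlapped the inputs. The Gp01 separation depends on the TMM factors. Act5C took 165671 of 40008034 gene counts in Gp01 1, a larger share than its 165910 of 42801639 in Kc input 6. Matched by number, where sequencing class also coincides, all 3 Rb5 libraries were above the input of the same number. Those inputs had 6954, 4425 and 7103 CPM in the libraries numbered 1, 2 and 3. Pairing by number was not established. The lowest Rb6, Gp01 and input values all came from the class of HiSeq libraries with PHRED33 qualities.

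Relative to Kc input, the log2 fold of Act5C was 0.61 ± 0.30 with Rb5, 0.10 ± 0.35 with Rb6, -1.64 ± 0.38 with Gp01 and -1.28 ± 0.30 with Su(Hw) (SE). Relative to BG3 input it was -0.15 ± 0.39 with Rb5 and -1.51 ± 0.40 with Su(Hw) (SE). The 4 Kc comparisons share their 6 inputs and the pair of BG3 comparisons share 2. The signs of the folds near 0 rested on single libraries: the Kc Rb6 fold was -0.03 without Rb6 1 and -0.02 without Kc input 5, and without BG3 input 1 the BG3 Rb5 fold was 0.20. Among all tested genes, 3.59% had a lower fold than Act5C with Gp01, 2.70% with Kc Su(Hw) and 3.54% with BG3 Su(Hw), so these folds were near the low end of all genes. The same share was 72.6% with Kc Rb5, 46.8% with Rb6 and 34.4% with BG3 Rb5. Within sequencing classes the Rb5 fold in Kc cells was 0.52 on GA II and 0.35 in the class run on both machines, and with any 1 library left out it lay between 0.34 and 0.79. The Su(Hw) fold in Kc cells was -1.77 on GA II, -0.71 on HiSeq with PHRED64 qualities and -1.53 in the class run on both machines.

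Act42A stood lower than input with every antiserum. In BG3 cells it had 794 and 605 CPM with Shep Rb5 and 518 and 526 CPM with Su(Hw), against 2079.5 and 1156 CPM in input, and both precipitates lay wholly below the inputs, as 21.8% of tested genes did with Rb5 and 25.8% with Su(Hw). In Kc cells it had 709.7, 248 and 294 CPM with Shep Rb5, 438 and 178 CPM with Rb6, 609.6 and 269.5 CPM with Gp01, and 355, 431 and 939.96 CPM with Su(Hw). The 6 Kc inputs had a lowest value of 529, a median of 963 and a highest value of 2383 CPM. Only the Rb6 libraries lay wholly below the Kc inputs, as 18.3% of tested genes did, and the other Kc precipitates each had 1 library within their range. The Rb6 separation depends on the TMM factors. Act42A took 26218 of 46893917 gene counts in Rb6 1, a larger share than its 23074 of 42801639 in Kc input 6.

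The log2 fold of Act42A against Kc input was -1.07 ± 0.39 with Rb5, -1.92 ± 0.48 with Rb6, -1.38 ± 0.47 with Gp01 and -0.97 ± 0.37 with Su(Hw) (SE). Against BG3 input it was -1.21 ± 0.49 with Rb5 and -1.63 ± 0.50 with Su(Hw) (SE). Without BG3 input 1, the library with the higher level, these folds were -0.72 and -1.15. The share of tested genes with a lower fold than Act42A was 9.43% with Kc Rb5, 1.67% with Rb6, 5.63% with Gp01, 5.71% with Kc Su(Hw), 3.21% with BG3 Rb5 and 2.77% with BG3 Su(Hw). Act42A was thus near the low end of all genes in each precipitate, whereas Act5C was there with Gp01 and Su(Hw) and not with Rb5 or Rb6. Within sequencing classes its fold in Kc cells was -1.09 on GA II and -1.09 in the class run on both machines with Rb5. On HiSeq with PHRED33 and then PHRED64 qualities it was -1.62 and -2.01 with Rb6 and -1.02 and -1.53 with Gp01. With Su(Hw) it was -1.34 on GA II, -0.91 on HiSeq with PHRED64 qualities and -0.54 in the class run on both machines.

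**Figure D1:**
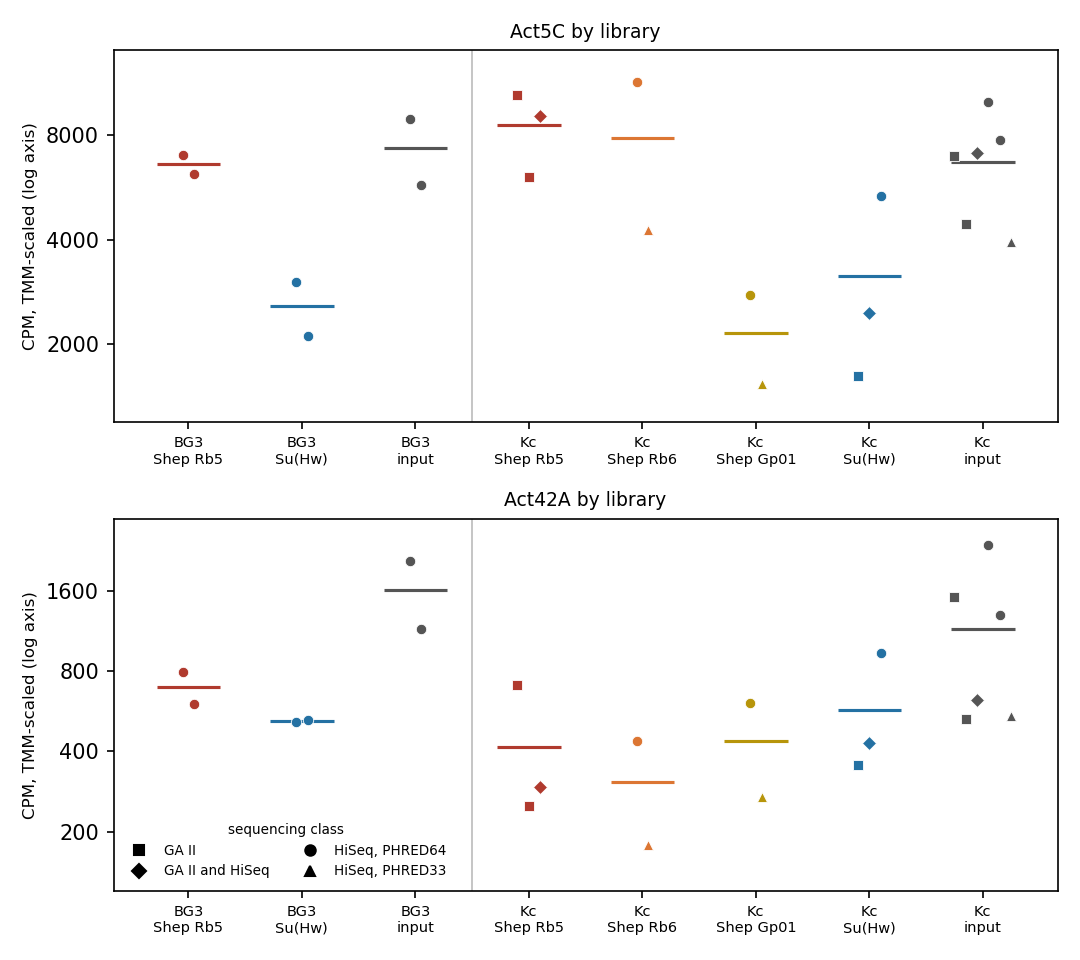
Level of Act5C (upper panel) and Act42A (lower panel) in CPM on a log axis, 1 point per library, with the line at each group's mean and the symbol giving the sequencing class. Act5C lay between 1541 and 2767 CPM with Shep Gp01, below every Kc input, while Act42A with Rb6, at 178 and 438 CPM, lay below every Kc input. Both separations depend on the TMM scaling.

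The different response of the cytoplasmic actins was followed in the ratio of Act5C to Act42A counts within a library, which does not depend on library scaling. The ratio is compared between libraries only and says nothing of the relative abundance of the RNAs. In Kc cells it was 14.7, 24.3 and 30.8 with Shep Rb5, 25.9 and 24.0 with Rb6, 4.54 and 5.72 with Gp01, and 4.58, 5.71 and 5.69 with Su(Hw), against a lowest value of 4.17 and a highest value of 11.4 in the inputs. In BG3 cells it was 8.79 and 10.2 in the Rb5 libraries and 5.83 and 4.03 in the Su(Hw) libraries, against 4.27 and 4.97 in input. The Rb5 and Rb6 libraries lay above all inputs of their line, and the Gp01 and Su(Hw) libraries overlapped them or lay on both sides. Of the 3 antisera against Shep in Kc cells, Gp01 thus had ratios in the range of Su(Hw) and not in that of Rb5 and Rb6. The ratios divided by the prefix of the antiserum's name, with Gp01 and Gp60 low and Rb5 and Rb6 high. Su(Hw) had a Gp antiserum only and there is no mock precipitation, so for Su(Hw) prefix and target cannot be told apart. The part of the antiserum in the ratio was not tested.

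On the log2 scale the ratio averaged 4.48 ± 0.54 with Kc Rb5 (SD, n = 3), 4.64 ± 0.08 with Rb6 (SD, n = 2), 2.35 ± 0.24 with Gp01 (SD, n = 2) and 2.41 ± 0.18 with Kc Su(Hw) (SD, n = 3), against 2.71 ± 0.55 in Kc input (SD, n = 6). In BG3 cells it averaged 3.24 ± 0.15 with Rb5 and 2.28 ± 0.38 with Su(Hw), against 2.20 ± 0.15 in input (SD, n = 2 each). The differences from input were 1.77 with Kc Rb5, 1.93 with Rb6 and 1.04 with BG3 Rb5, and -0.36 with Gp01, -0.30 with Kc Su(Hw) and 0.07 with BG3 Su(Hw). Within sequencing classes they were 1.61 on GA II and 1.44 in the class run on both machines with Kc Rb5. On HiSeq with PHRED33 and then PHRED64 qualities the Rb6 differences were 1.74 and 2.38, and those of Gp01 were -0.33 and -0.13. With Kc Su(Hw) the sign differed between classes, at -0.43 on GA II, 0.19 on HiSeq with PHRED64 qualities and -0.99 in the class run on both machines. The ratio used the values that chose the genes and had no test in precipitates. In the inputs, the mean of BG3 minus that of Kc was -0.50, with an exact two-sided permutation p of 0.286 over 28 arrangements of 2 and 6 libraries. The smallest p this design can give is 0.0357.

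**Figure D2:**
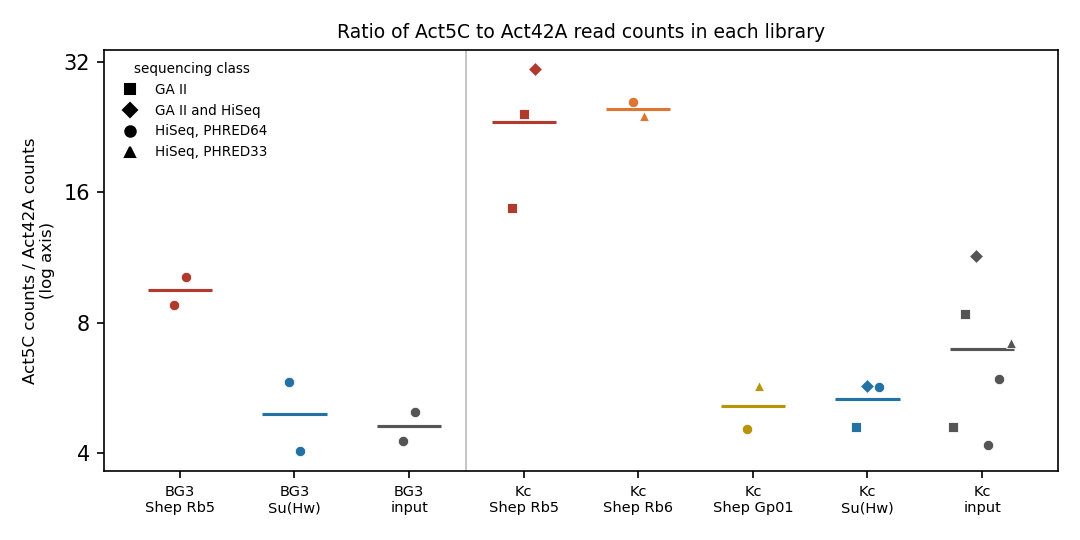
Ratio of Act5C to Act42A read counts in each library on a log axis, with the line at each group's mean and the symbol giving the sequencing class. The Shep Rb5 and Rb6 libraries sit above the inputs of their line, at 14.7 to 30.8 in Kc and 8.79 to 10.2 in BG3, and the Gp01 libraries sit at 4.54 and 5.72.

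The genes whose level moved most like each cytoplasmic actin over the 16 Kc libraries were sought among 5250 genes with at least 10 CPM on average, of which 32 could be given a symbol. Pearson's r of log2 CPM with Act5C was 0.76 for Ts, the thymidylate synthase gene, 0.71 for Pnn, 0.70 for CG31875, 0.57 for CSN3 and 0.56 for CG4570. With Act42A it was 0.83 for Ant2, a mitochondrial adenine nucleotide carrier, 0.83 for Coa7, 0.72 for CSN3, 0.70 for Mau2 and 0.61 for Idgf3, a chitinase-like growth factor. Only CSN3, a subunit of the COP9 signalosome, was in both sets. The r between Act5C and Act42A themselves was 0.43, and 21.5% of the 5250 genes had a higher r with Act5C than Act42A had. These correlations are a description: the libraries share antisera, depth and sequencing class. They use the precipitate values on which Act5C and Act42A were selected, and the named sets come from 32 genes. They therefore do not test whether the 2 actin genes differ. Of the genes compared, 3.41% were closer to Act5C than Ts was and 13.5% were closer than CG4570. For Act42A, 1.66% were closer than Ant2 and 13.9% were closer than Idgf3.

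Act57B, a muscle actin, rose with Shep Rb5 in Kc cells relative to Kc input. It was also called higher with Rb6 and Gp01, but both of those calls were lost without the term for sequencing class. The direction with Rb6 and Gp01 was positive with or without that term. Among the alternatives run, it turned negative only when libraries were blocked by number and class was left out. With Rb5 the call held under every alternative run: the fold lay between 1.18 and 1.79 with any 1 library of the comparison left out, and was 2.52 without the class term (adjusted p = 0.00497). Of the 4 actin genes tested, Act57B alone was called with Rb5, where 29.8% of tested genes were called and 14.9% were called higher. In Kc cells it had 10.7, 4.66 and 4.35 CPM with Rb5, against a lowest value of 0.331, a median of 1.07 and a highest value of 2.49 CPM in the inputs. All 3 Rb5 libraries lay above all 6 inputs, as 12.1% of tested genes did. The log2 fold was 1.53 ± 0.35 (SE, edgeR, adjusted p = 0.00308), and within sequencing classes it was 1.60 on GA II and 1.65 in the class run on both machines. The inputs held 14 to 56 Act57B counts each, so counting error is large at this level. Mlp60A, a muscle LIM protein gene, was not called in the Kc comparisons with input, with log2 folds of 0.59 with Rb5 (adjusted p = 0.530), 0.13 with Rb6 (adjusted p = 0.899), 0.93 with Gp01 (adjusted p = 0.294) and 0.55 with Su(Hw) (adjusted p = 0.515).

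With Shep Rb6, Act57B had 1.86 and 0.699 CPM, and with Shep Gp01 it had 1.72 and 0.620 CPM, values that overlap the Kc inputs as a whole. The Kc inputs differed by sequencing class, with 0.331 to 0.761 CPM on HiSeq and 1.38 to 2.49 CPM in the other classes, and the Rb6 and Gp01 libraries were all run on HiSeq. With class in the fit, the log2 fold was 1.51 ± 0.40 with Rb6 (SE, edgeR, adjusted p = 0.00808) and 1.39 ± 0.41 with Gp01 (SE, edgeR, adjusted p = 0.0222). Act57B was again the 1 gene called of the 4, beside 29.9% of tested genes with Rb6 and 20.2% with Gp01, and 14% of tested genes were called higher with Rb6 and 9.92% with Gp01. On HiSeq with PHRED33 and then PHRED64 qualities the fold was 1.05 and 1.47 with Rb6, and 0.88 and 1.36 with Gp01. Both calls rest on the class term: without it the folds were 0.17 with Rb6 (adjusted p = 0.887) and 0.07 with Gp01 (adjusted p = 0.970). Without Rb6 1 the Rb6 fold was 1.34 (adjusted p = 0.256), and the Gp01 fold was 1.15 without Gp01 1 (adjusted p = 0.410) and 1.51 without Gp01 2 (adjusted p = 0.0660). With only the compared groups in the fit the Gp01 fold was 1.19 (adjusted p = 0.0683).

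With Su(Hw) in Kc cells, Act57B had 5.16, 2.22 and 0.580 CPM and its log2 fold was 0.51 ± 0.35 (SE, edgeR, adjusted p = 0.303). The Su(Hw) libraries differed widely, with 1 above all inputs and the others within their range. Within sequencing classes the Su(Hw) fold was 1.15 on GA II, 0.69 in the class run on both machines and -0.18 on HiSeq with PHRED64 qualities. The direct difference of Rb5 and Su(Hw) in Kc cells was 1.02 ± 0.38 (SE, edgeR, adjusted p = 0.0516), which missed the threshold, and it passed with a single library, Kc Rb5 2, left out (1.26, adjusted p = 0.0196). Within sequencing classes the difference of Rb5 and Su(Hw) was 0.45 on GA II and 0.97 in the class run on both machines. Rb6 and Gp01 differed by 0.12 ± 0.44 for this gene (SE, edgeR, adjusted p = 0.864). In the Kc Su(Hw), Rb5 against Su(Hw) and Rb6 against Gp01 comparisons, 0 of the 4 actin genes were called by edgeR or by DESeq2, beside 24.2%, 26.6% and 28.2% of tested genes. At an unadjusted p under 0.05, both tools had 0, 1 and 0 of them, where edgeR had 38.1%, 38.4% and 38.3% of tested genes.

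In BG3 cells Act57B was lower with Shep Rb5 than with Su(Hw) after TMM scaling, and neither precipitate passed the test against input. It had 14.7 and 13.9 CPM with Shep Rb5 and 48.9 and 20.1 CPM with Su(Hw), against 20.8 and 14.8 CPM in input. Both Rb5 values lay just under both inputs, as 21.8% of tested genes did, and the Su(Hw) libraries differed widely from each other. With Rb5 there were 700 and 798 Act57B counts among 43488976 and 45411211 gene counts. With Su(Hw) there were 513 and 715 among 25625321 and 48754771, and in input 757 and 438 among 44147921 and 35270932. Without the TMM factors, 0.410 and 0.731 with Su(Hw) and 1.09 and 1.27 with Rb5, these groups overlap. The log2 fold was -0.32 ± 0.39 with Rb5 (SE, edgeR, adjusted p = 0.635) and 0.94 ± 0.40 with Su(Hw) (SE, edgeR, adjusted p = 0.0843). The Su(Hw) value rested on single libraries, at 0.17 without Su(Hw) 1 (adjusted p = 0.869) and 1.44 without Su(Hw) 2 (adjusted p = 0.0133). In these comparisons with input 0 of 4 actin genes were called by edgeR or by DESeq2, beside 11% of tested genes with Rb5 and 27.5% with Su(Hw). Both tools had 1 of 4 at an unadjusted p under 0.05 in each, where edgeR had 27% of tested genes with Rb5 and 39.5% with Su(Hw).

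Directly compared in BG3 cells after TMM scaling, Act57B was lower with Rb5 than with Su(Hw), with a log2 difference of -1.26 ± 0.40 (SE, edgeR, adjusted p = 0.0403). It was the 1 gene called of the 4 actin genes tested, beside 14.3% of tested genes, and 6.6% of tested genes were called lower. The call was lost without BG3 Su(Hw) 1, where the difference was -0.48 (adjusted p = 0.646). It was also lost without the class term (adjusted p = 0.403), with the compared groups alone (adjusted p = 0.152), and without Rb5 1 (adjusted p = 0.130) or Rb5 2 (adjusted p = 0.214). Mlp60A moved with it: it had 2 and 4 counts in the BG3 Rb5 libraries, 50 and 22 in the Su(Hw) libraries and 2 and 0 in input. Mlp60A was 5.40 ± 0.88 lower in log2 with Rb5 than with Su(Hw) (SE, edgeR, adjusted p = 0.000516) and 6.25 ± 1.01 higher with Su(Hw) than in input (SE, edgeR, adjusted p = 0.000287). Of 34 marker symbols for blood cells, nervous system, muscle and fat body, Mlp60A alone was matched to an identifier, so the lines' identity was not checked further, and the part of muscle transcripts in the result was not tested.

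The test of whether the enrichment of Act57B differed between the lines gave -1.84 ± 0.53 for Shep Rb5, BG3 minus Kc (SE, edgeR, adjusted p = 0.249), and 0.44 ± 0.53 for Su(Hw) (SE, edgeR, adjusted p = 0.768). In both tests 0 of 4 actin genes were called by edgeR or by DESeq2, beside 0.0904% of tested genes for Rb5 and 2.59% for Su(Hw). At an unadjusted p under 0.05, edgeR had 3 of 4 for Rb5 and 0 for Su(Hw), and DESeq2 had 2 and 0. Over all tested genes edgeR had 10.3% at that threshold for Rb5 and 15.3% for Su(Hw). With no filter on low counts the Rb5 difference of Act57B was -1.89 and passed (adjusted p = 0.00913).

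**Figure D3:**
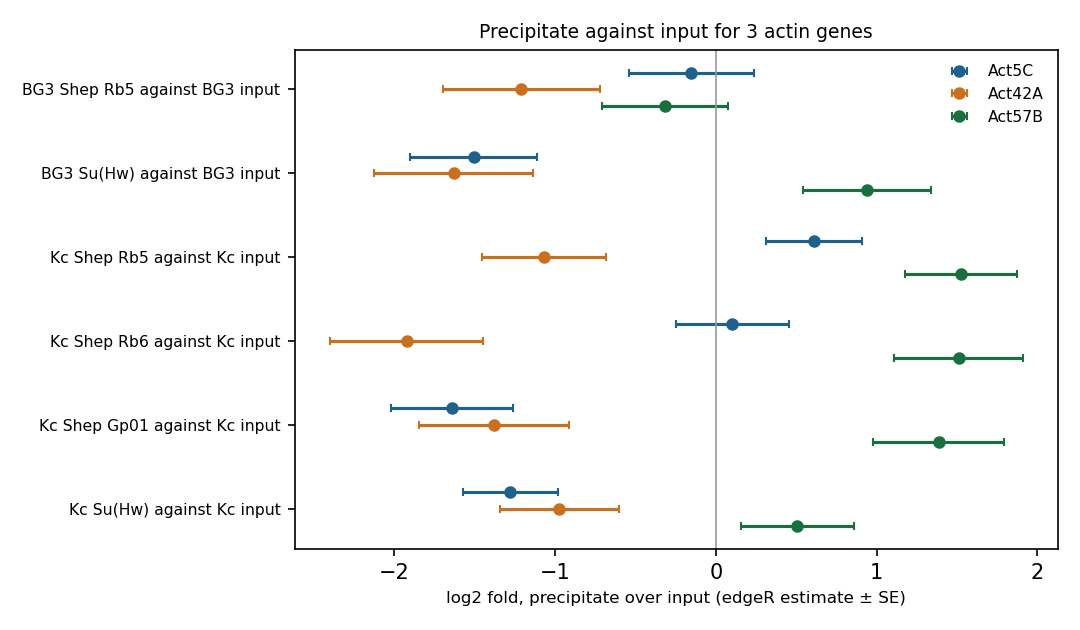
Log2 fold of precipitate over input of the same line for Act5C, Act42A and Act57B, as the edgeR estimate with its SE. Act42A lies left of 0 in all 6 comparisons, Act5C lies between -0.15 and 0.61 with Rb5 and Rb6 and at -1.28 to -1.64 with Gp01 and Su(Hw), and Act57B lies at 1.39 to 1.53 with the Shep antisera in Kc cells.

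Act57B was also set against Act5C within each library. Per 1000 Act5C counts there were 2.11 to 2.25 Act57B counts with BG3 Rb5, 9.45 to 16.2 with BG3 Su(Hw) and 2.34 to 2.58 in BG3 input. In Kc cells there were 0.480 to 1.02 with Rb5, 0.163 to 0.164 with Rb6, 0.402 to 0.622 with Gp01, 0.108 to 3.18 with Su(Hw) and 0.0576 to 0.563 in input. These quotients hold Act5C's own lower level with Gp01 and Su(Hw) and are a description.

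Of the muscle actins Act57B and Act79B were higher in BG3 input than in Kc input, and Act87E was called higher on the strength of 1 BG3 library. Act88F and both cytoplasmic actins did not pass the test. In BG3 input against Kc input, 3 of the 6 actin genes were called, all higher in BG3, where 42.6% of tested genes were called and 23.9% were called higher. Act57B had 20.8 and 14.8 CPM in BG3 inputs, against 0.331 to 2.49 CPM in Kc inputs. Its log2 fold was 4.86 ± 0.39 (SE, edgeR, adjusted p = 7.02e-09) and 4.71 within HiSeq libraries with PHRED64 qualities. Leaving out any 1 input moved it to between 4.59 and 5.08.

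Act79B, the actin of adult tubular muscle, had 9.84 and 1.86 CPM in BG3 inputs (358 and 55 counts), against 0.0473 to 0.295 CPM in Kc inputs (1 to 12 counts). The log2 fold was 5.40 ± 0.75 (SE, edgeR, adjusted p = 9.80e-06), and both BG3 inputs lay above all Kc inputs, as they did for Act57B and for 25.3% of tested genes. Without BG3 input 1 the fold was 3.74, and the call held.

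Act87E had 5.06 and 0.542 CPM in BG3 inputs (184 and 16 counts), against 0.189 to 0.951 CPM in Kc inputs (2 to 40 counts). The groups overlapped, since BG3 input 2 lay among the Kc inputs. The log2 fold was 2.55 ± 0.75 (SE, edgeR, adjusted p = 0.0105), but it was 0.18 without BG3 input 1 (adjusted p = 0.910) and 2.15 with the inputs fitted alone (adjusted p = 0.104). Act88F, the flight muscle actin, had 0.495 and 0.136 CPM in BG3 inputs (18 and 4 counts), against 0.0237 to 0.452 CPM in Kc inputs (1 to 19 counts), and its fold was 0.58 ± 0.80 (SE, edgeR, adjusted p = 0.593).

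The cytoplasmic actins overlapped between the lines' inputs. Act5C averaged 7308 ± 2215 CPM in BG3 inputs (SD, n = 2) and 6679 ± 2219 CPM in Kc inputs (SD, n = 6), with a log2 fold of -0.45 ± 0.36 (SE, edgeR, adjusted p = 0.343). Act42A averaged 1618 ± 653 CPM in BG3 inputs (SD, n = 2) and 1150.3 ± 736 CPM in Kc inputs (SD, n = 6), with a fold of -0.12 ± 0.44 (SE, edgeR, adjusted p = 0.854). The fitted folds compare the lines at the same sequencing class, and without the class term they were 0.13 and 0.49. Mlp60A was lower in BG3 input than in Kc input, at -3.86 ± 1.01 (SE, edgeR, adjusted p = 0.00454), the direction opposite to the called actins. This is 1 gene with few counts in both lines, at 2 and 0 in BG3 inputs and 2 to 26 in Kc inputs. Other markers of muscle had no matched identifier, and the part of other cell types in the difference was not tested.

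Act79B, Act87E and Act88F were rare in every precipitate. In BG3 cells Act79B had 5.01 and 1.22 CPM with Shep Rb5 and 5.72 and 1.85 CPM with Su(Hw), against 9.84 and 1.86 CPM in input. Act87E had 0.927 and 0.453 CPM with Rb5 and 1.43 and 0.365 CPM with Su(Hw), against 5.06 and 0.542 CPM in input. Act88F had 0.147 and 0.139 CPM with Rb5 and 0.381 and 0.0561 CPM with Su(Hw), against 0.495 and 0.136 CPM in input. In each BG3 group the library numbered 1 had the higher CPM of all 3 genes. Some of these differences are small or depend on scaling: Act88F had 7 and 8 counts in Rb5 1 and 2, and Act79B had 60 and 66 in Su(Hw) 1 and 2. Reads placed in more than 1 position held 72.7% to 74.5% of the counts in the libraries numbered 1 and 84.2% to 86.6% in those numbered 2. The part of the reads' placement in these values was not tested.

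In Kc precipitates Act79B reached at most 1.00 CPM, in Rb5 3, and Act87E reached at most 1.11 CPM, in Rb5 1. Act88F reached at most 0.388 CPM, also in Rb5 1. In Kc Su(Hw) 1, the shallowest library, Act79B and Act88F had 0 counts, which allows up to 0.673 CPM at 3 counts. In each of the 11 comparisons other than that of the inputs, 0 of these 3 genes were called by edgeR or by DESeq2, beside 0.0904% to 29.9% of tested genes by edgeR. Of the 33 tests, 3 had an unadjusted p under 0.05 in edgeR and 2 in DESeq2, where edgeR had between 10.3% and 41.5% of tested genes in a comparison.

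**Figure D4:**
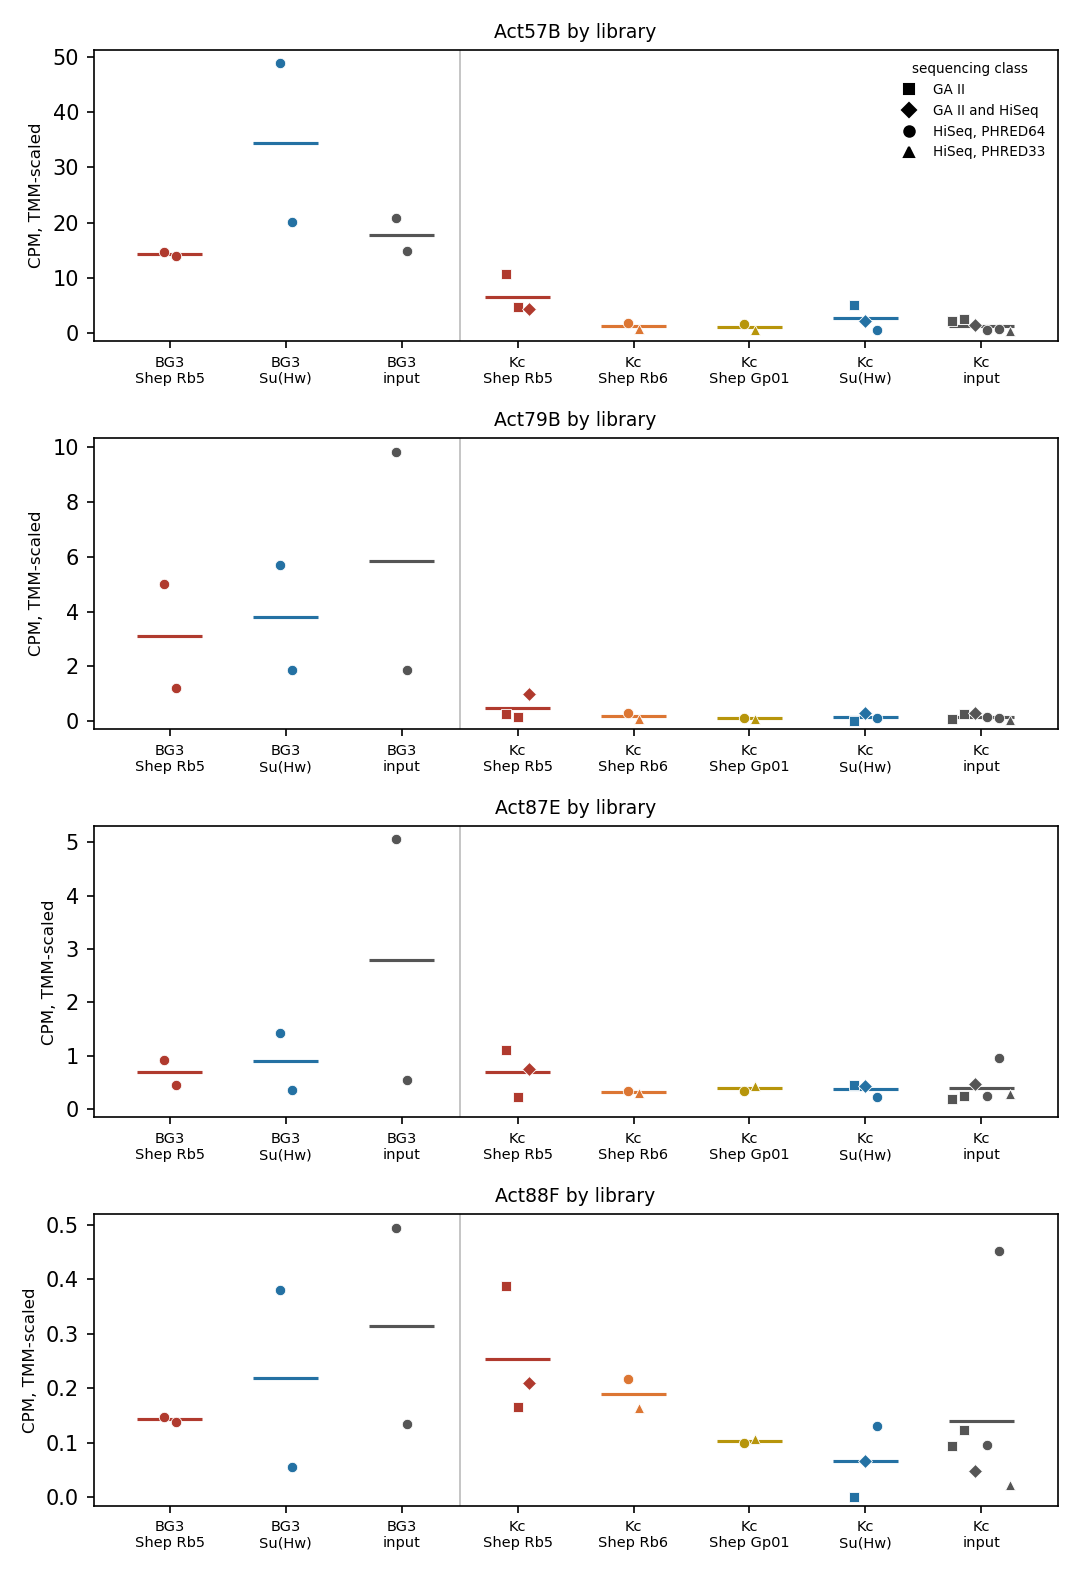
Level of the 4 muscle actins in CPM on linear axes, each with its own scale, 1 point per library, with the line at each group's mean and the symbol giving the sequencing class. After TMM scaling the BG3 libraries hold 13.9 to 48.9 CPM of Act57B, above every Kc library, and Act87E passes 1.43 CPM in BG3 input 1 alone.

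The actin regulators, which fold, cap, branch and bundle actin or move along it, were to be described beside the family. Of 99 regulator symbols set down, 0 could be matched to an identifier, because the gene table used pairs 172 of the identifiers with 1 symbol. Their values are not analysed here.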

How the data were processed

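Polyadenylated nuclear RNA was sequenced from precipitates and inputs, per the labels' protocols, after preclearing of the extracts with preimmune serum and DNase I treatment. The authors deposited raw read counts per gene and sample. Per the submitters' processing notes, build dm3 was used with HTSeq, TopHat2, Bowtie2, DESeq and cutadapt 1.2.1; the sources used here give neither their order nor the annotation release or strand setting, so overlapping and antisense genes are uncertain. Lines that name no gene held 50.2% to 91.2% of the counts and entered neither library sizes nor tests.

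The 25 samples hold 22 libraries, since the files of Kc Su(Hw) 2, Shep Rb5 3 and input 3 appear for both sequencers with the same values, and each entered 1 time. Counts were tested with edgeR 4.0.16 (robust quasi-likelihood test, limma 3.58.1, R 4.3.3), TMM scaling, terms for group and for sequencing class, and all libraries in 1 fit, with a minimum count of 10, a minimum total of 15 and Benjamini-Hochberg adjustment at 0.05 over 9961 genes in each of 12 comparisons. Folds within classes used log2 CPM with a prior count of 0.5 and likeness used one of 2. The procedure was tested on simulated counts that held no effect of sequencing class. That run does not bear on calls that depend on the class term. A value of 0 was given the limit of 3 counts, which covers counting error only.

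Alternatives were DESeq2 1.42.0, no filter, RLE size factors, no class, the replicate number as a block, only the compared groups, without FBgn0085813 (a feature that takes a large part of some libraries), and leaving out each library. Same-numbered libraries of Kc Rb5 and Kc input correlated at 0.490, 0.306 and 0.309 in their deviations from the group means. Numbers and sequencing class coincide there, so these correlations cannot establish pairing. Kc input 1 also correlated at 0.399 with Rb6 1 and at 0.389 with Gp01 1, which are of another class. Kc Rb5 and Kc input were matched by number as a description only.

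The members, lists and rules were chosen with earlier results of these data known. Named genes were the 6 actin genes, up to 3 called actin regulators each way per comparison, and, for Act5C and Act42A, the 5 genes with a symbol of highest r. Actin names come from the list that defines the family. Other symbols come from a RefSeq gene table of another assembly, used for names only, which gave 172 identifiers 1 symbol, and 80 of these were tested.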

Additional observations from a re-analysis of the deposited data

Results flagged for a closer look

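The 6 Kc inputs formed the only group large enough to look for a library far from the others, and 7 such checks were made: the 6 actin genes and the ratio of Act5C to Act42A. Kc input 5 stood apart in both of the checks that found one. It held 0.951 CPM of Act87E (40 counts), while the other Kc inputs held 0.189 to 0.467 CPM. It held 0.452 CPM of Act88F (19 counts), while the others held 0.0237 to 0.125 CPM. Chance marks about 1 in 20 such groups. Without Kc input 5, the log2 fold of BG3 input over Kc input was 3.51 for Act87E (edgeR, adjusted p = 0.00347) and 1.97 for Act88F.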

How the results depend on the processing

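For Act5C and Act42A, 189 values under an alternative stayed within the SD between libraries or on their side of the threshold, 3 moved further and 4 values of BG3 input over Kc input turned. Folds near 0 also changed sign for Act5C, to -0.02 without Kc input 5 and -0.03 without Rb6 1 with Kc Rb6, and to 0.20 without BG3 input 1 with BG3 Rb5. BG3 input over Kc input was 0.13 for Act5C and 0.49 for Act42A with no class, and for Act42A within -0.61 to 0.25 with each input left out (0.25 without BG3 input 2 and 0.16 without Kc input 4). For Act57B the Rb6 and Gp01 folds turned to -1.19 and -1.31 with the replicate number as a block (adjusted p = 0.0501 and 0.0576), and the Kc Su(Hw) fold to -0.015. By number, the Rb6 and Gp01 libraries, all run on HiSeq, fall beside Kc inputs 1 and 2. Those inputs were run on GA II and had 2.17 and 2.49 CPM of Act57B. The Rb6 and Gp01 folds with the block therefore cannot be told apart from sequencing class. The block could not be estimated for BG3 input against Kc input, and it changed no call of Act57B in Kc Rb5 against input, where the fold was 1.61. Pairing by number was not established in any comparison, and elsewhere the numbers share no stated source. With the block Kc Rb5 against Su(Hw) passed for Act57B (1.62, adjusted p = 0.00471) and BG3 Rb5 against Su(Hw) did not (-1.14, adjusted p = 0.0702). The first also passed with no filter (1.12, adjusted p = 0.00635) and without FBgn0085813 (1.10, adjusted p = 0.0365). The difference of Su(Hw) enrichment between the lines turned to -0.022 with no class and lay between -0.34, without BG3 Su(Hw) 1, and 0.94 with each library left out, and Rb6 against Gp01 turned to -0.025 without Gp01 2 and -0.033 without Rb6 1. Act88F in BG3 input over Kc input lay between -0.64, without BG3 input 1, and 1.97. The cause was not tested.

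Genes called numbered 1094 in BG3 Rb5 against input, and 1775 with DESeq2, 304 with no class and 0 with only the compared groups (2095 at an unadjusted p under 0.05). In BG3 Su(Hw) against input (2740) there were 1783 with no class and 838 with only the compared groups. In Kc Su(Hw) against input (2412) there were 1434 with the block and 1539 with only the compared groups. In Kc Rb5 against Su(Hw) (2645) no class gave 1665 and only the compared groups 1557, and in BG3 Rb5 against Su(Hw) (1427) they gave 903 and 237. Only the compared groups gave 2766 in BG3 against Kc input (4242) and 4832 in Rb6 against Gp01 (2813). The difference of Su(Hw) enrichment (258) had 589 with DESeq2, 462 with no filter, 155 with no class, 396 with the block and 78 with only the compared groups. That of Rb5 enrichment (9) had 124 with DESeq2, 109 with no filter, 0 with no class (577 at an unadjusted p under 0.05 in edgeR), and 4 with the block or only the compared groups.

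Leaving out each library gave ranges of 1466 to 2889 (Kc Rb5), 382 to 3068 (Rb6), 235 to 2028 (Gp01), 1158 to 2532 (Kc Su(Hw)), 92 to 891 (BG3 Rb5), 1369 to 2873 (BG3 Su(Hw)), 3334 to 4286 (BG3 against Kc input), 1193 to 2504 (Kc Rb5 against Su(Hw)), 430 to 1894 (BG3 Rb5 against Su(Hw)), 1012 to 1821 (Rb6 against Gp01), 44 to 430 (Su(Hw) difference) and 0 to 8 (Rb5 difference). The lowest of these came without Rb5 3, Rb6 1, Gp01 1 and Su(Hw) 1 in the 4 Kc comparisons with input, and without BG3 input 1 and BG3 Su(Hw) 1 in the BG3 ones. The log2 ratio of Act5C to Act42A against input was 0.19 on HiSeq with PHRED64 qualities and -0.99 in the mixed class for Kc Su(Hw), 2.38 on HiSeq with PHRED64 qualities for Rb6, and -0.19 to 0.34 for BG3 Su(Hw) with each library left out. Few counts limit Act79B, Act87E and Act88F, of which 1 passed with no filter in 4 comparisons (BG3 Rb5, BG3 Su(Hw), Kc Rb5 against Su(Hw) and the Rb5 difference) and without BG3 input 2 in BG3 Rb5 and BG3 Su(Hw) against input.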
